A study of Mus musculus with 6 samples.

Results

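The Schwann glial G protein-coupled receptors described here are 8 cell surface receptors that glia or their neural crest relatives use: Gpr126, Gpr56, Gpr17, Gpr37, Gpr37l1, Ednra, Ednrb and Mchr1. They were chosen by symbol, with their values in these arrays already known, as the 10 probes whose gene name in the scanner files equals one of the 8 symbols. Gpr126 and Gpr56 are older symbols of Adgrg6 and Adgrg1. Of the 8 receptors, 7 had a probe bright enough to be among the 19058 genes tested, and Gpr17 did not. Because this contrast was known when the receptors were picked, their values are a description and carry no p-value.

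The samples are sciatic nerves of mice aged 1 month, collected as 3 independent pools labelled OGT_SCKO and 3 pools of littermate controls labelled Ctrl, with 1 array per pool. OGT_SCKO mice are a knockout of Ogt that the labels and the series title tie to Schwann cells, the ensheathing glia of peripheral nerve, and Ogt encodes the enzyme that attaches the sugar O-GlcNAc to nuclear and cytoplasmic proteins. Both groups share the strain that the labels spell C56 BL6. The Cre driver, the deleted part of the gene, the alleles the controls carry and the number of animals in a pool are not given in the sources used here. The p-values therefore measure the spread between pools. The series title sets O-GlcNAc in Schwann cells against the transcription factor JUN, part of the AP-1 complex.

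G protein-coupled receptors cross the membrane with a bundle of helices and switch on heterotrimeric G proteins inside the cell. Gpr126 and Gpr56 are adhesion receptors: a large outer domain binds matrix or membrane proteins. In zebrafish and mouse, Gpr126 raises cyclic AMP in Schwann cells and is needed for them to begin myelination, and mouse Gpr56 acts in the sorting of axons. Gpr37 and Gpr37l1 are related receptors for which prosaposin is a reported ligand, and Gpr17 marks immature oligodendrocytes. Ednra and Ednrb bind endothelins, small peptides known for vessel contraction and for the development of neural crest cells. Mchr1 binds melanin-concentrating hormone, a peptide known for its role in feeding.

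A microarray measures a gene through short probes, and 3 probe sequences are shown because the results turn on them: the probe of Mchr1, the receptor with the largest difference, that of Gpr37l1, the brightest member, and the second Ednrb probe, which gave another result than the first. The probes are 60 bases long, given as in the files from 5′ to 3′, at mm9 positions from the files. The Mchr1 probe lies at chr15:81068481-81068540 on the plus strand, the Gpr37l1 probe at chr1:137057746-137057805 on the minus strand and the second Ednrb probe at chr14:104220870-104220929 on the minus strand. Exon and UTR annotation of mm9 was not used here.
Mchr1: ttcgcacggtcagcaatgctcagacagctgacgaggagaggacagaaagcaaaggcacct
Gpr37l1: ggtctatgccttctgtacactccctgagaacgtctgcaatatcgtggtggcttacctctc
Ednrb, second probe: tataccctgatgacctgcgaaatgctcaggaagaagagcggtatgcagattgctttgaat

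Values are log2 signal relative to the 75th percentile of the same array, so 0 is the level that 75% of probes lie below, and differences are OGT_SCKO minus Ctrl. A gene was called where its adjusted p in the limma fit over all genes was under 0.05. Ogt had -0.89, -1.02 and -1.01 in OGT_SCKO pools 1 to 3, against 0.46, 0.35 and 0.11 in Ctrl pools 1 to 3. It was therefore at 41.3% of its Ctrl level (log2 difference -1.28, SE 0.13, limma adjusted p = 0.00117). Arrays of 1 group correlated at 0.979 to 0.996 across genes and arrays of different groups at 0.949 to 0.976, where genes are not independent replicates. By the slide barcodes of the deposited files, slide 1 held the 3 OGT_SCKO pools with Ctrl 2, and slide 2 held Ctrl 1 and Ctrl 3, so group and slide are partly confounded. The comparison was therefore repeated with slide as a fixed block and on slide 1 alone, and both set the OGT_SCKO pools against Ctrl 2. On slide 1 alone Ogt differed by -1.32 and missed the threshold (limma adjusted p = 0.0537).

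Schwann cell markers were measured in every pool. All 5 general markers and all 6 myelin markers were well above background on all 6 arrays. The summed level of the 5 general markers, each as a multiple of the 75th percentile, was 111 to 174 in OGT_SCKO pools and 163 to 187 in Ctrl pools, and that of the 6 myelin markers was 209 to 332 and 329 to 459. Among the general markers Foxd3 rose (log2 difference 0.74, SE 0.21) and S100b fell (log2 difference -0.67, SE 0.12), with the other 3 not called. Among the myelin markers Prx fell (log2 difference -0.53, SE 0.14), with the other 5 not called. Over all genes 23.3% were called. The calls of Foxd3 and Prx were lost without OGT_SCKO 3 or any 1 of the Ctrl pools, that of Prx also without OGT_SCKO 2, and that of S100b without OGT_SCKO 3. With slide as a fixed block, on slide 1 alone and with the replicate number as a block none of the 3 was called. In whole nerve, fewer cells of a type and less RNA per cell cannot be told apart.

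Of the 7 receptors with a tested probe, 3 were among the calls: Ednra and Ednrb higher and Mchr1 lower in OGT_SCKO nerves. Over all genes 23.3% were called, 11.2% as higher and 12.1% as lower. In 4 receptors, Gpr37l1, Ednra, Ednrb and Mchr1, the values of the 3 OGT_SCKO pools and the 3 Ctrl pools did not overlap, as in 45.7% of all genes. The median log2 difference was 0.35 over the 7 receptors and -0.08 over all genes. Since the receptors were picked on this contrast, nothing is read from these counts.

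**Figure D1:**
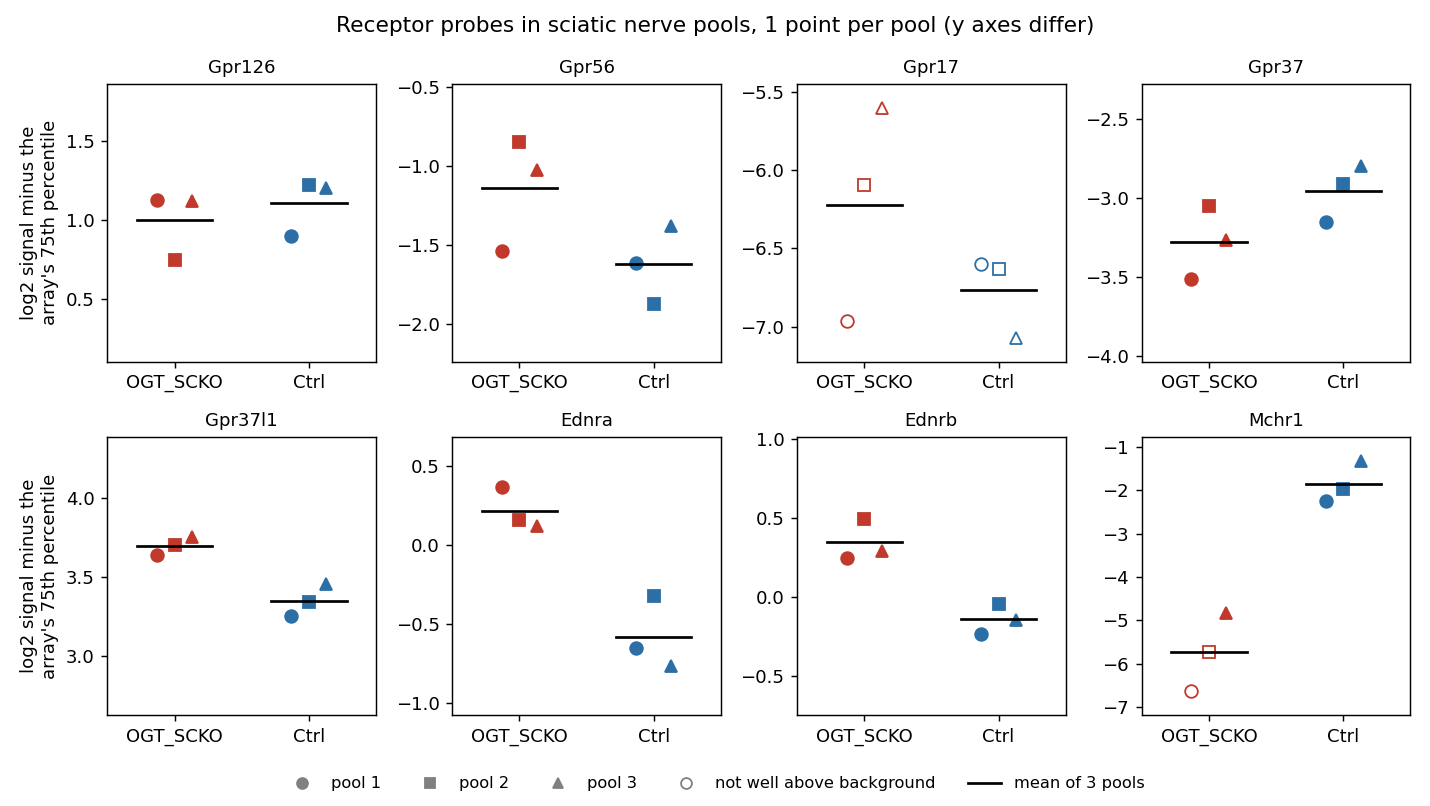
Log2 signal relative to the array's 75th percentile (y axis, its own scale in each panel) of the 8 receptors in 3 OGT_SCKO pools and 3 Ctrl pools. Each point is 1 pool, open points were not well above background and lines are means. Mchr1 lies between -6.63 and -4.83 in OGT_SCKO pools, under all Ctrl pools, whereas Gpr126 overlaps between the groups.

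Neither of the adhesion receptors was called. Gpr126, measured by a probe at chr10:14122435-14122494 (mm9, minus strand), had 1.13, 0.75 and 1.12 in OGT_SCKO pools 1 to 3, against 0.90, 1.22 and 1.21 in Ctrl pools 1 to 3. The lowest value was that of OGT_SCKO 2, and the groups overlapped. Means were 1.00 ± 0.22 in OGT_SCKO and 1.11 ± 0.18 in Ctrl nerves (SD, n = 3 each), a log2 difference of -0.11 with an SE of 0.16. Without OGT_SCKO 2 the difference was 0.02, so its sign rested on that pool.

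Gpr56, measured at chr8:97537978-97538037 (mm9, plus strand), had -1.54, -0.85 and -1.02 in OGT_SCKO pools 1 to 3 and -1.61, -1.87 and -1.38 in Ctrl pools 1 to 3. OGT_SCKO 2 and 3 lay above every Ctrl pool, and OGT_SCKO 1 lay among them. The log2 difference was 0.48 with an SE of 0.21, or 1.40-fold, and ranged between 0.34 and 0.69 when 1 pool was left out. Without OGT_SCKO 1 it was among the calls. Within slide 1 it was 0.73.

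The promoters of the receptors were searched because JUN, named in the series title, binds AP-1 sites. The motif TGANTCA, searched in the 250 bases before each start in RefSeq's promoters of GRCm38.p6 and reading the same on both strands, was found in 1 of the 7 receptor genes with an entry, and 7.82% of all genes with a promoter hold it. That gene was Gpr56, in its second promoter, chr8:94984149-94984398 (plus strand, GRCm38.p6), where capitals mark 2 matches that begin 141 and 59 bases before the start. Of all promoters, 6.75% held 1 or more matches and 0.338% held 2 or more. The Mchr1 window, chr15:81235249-81235498 (plus strand, GRCm38.p6), is shown beside it as the receptor with the largest difference and holds no match. The cyclic AMP response motif TGACGTCA, which contains no match of the first motif, was searched in the same way. It was in 0 of the 7 genes, in 1.77% of all genes with a promoter and in 1.55% of all promoters. A match is a run of letters and says nothing of binding.
Gpr56: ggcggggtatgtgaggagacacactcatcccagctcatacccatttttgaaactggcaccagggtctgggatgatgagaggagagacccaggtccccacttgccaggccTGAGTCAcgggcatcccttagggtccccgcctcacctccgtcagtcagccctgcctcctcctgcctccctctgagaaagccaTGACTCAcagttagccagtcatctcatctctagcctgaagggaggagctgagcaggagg
Mchr1: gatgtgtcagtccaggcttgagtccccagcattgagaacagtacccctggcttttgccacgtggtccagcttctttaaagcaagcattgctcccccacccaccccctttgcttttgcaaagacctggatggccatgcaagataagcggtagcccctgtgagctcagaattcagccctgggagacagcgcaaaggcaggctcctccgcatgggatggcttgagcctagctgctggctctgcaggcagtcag

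Reported partners of both adhesion receptors were measured in the same arrays. For Gpr126 these are collagen IV, a basement membrane collagen, laminin-211 and the prion protein. Col4a1 and Col4a2, the common collagen IV chains, fell: Col4a1 had 4.20, 4.09 and 4.30 in OGT_SCKO pools 1 to 3 and 4.52, 4.85 and 4.73 in Ctrl pools 1 to 3 (log2 difference -0.51, SE 0.13, limma adjusted p = 0.0326), and Col4a2 differed by -0.48 (SE 0.12, limma adjusted p = 0.0359). Col4a5, a chain of other basement membranes, rose 1.46-fold (log2 difference 0.54, SE 0.10, limma adjusted p = 0.0125). The calls of Col4a1 and Col4a2 were lost under quantile normalisation, in the authors' deposited table and without OGT_SCKO 2, OGT_SCKO 3, Ctrl 2 or Ctrl 3, and that of Col4a2 also without OGT_SCKO 1. The call of Col4a5 was lost without OGT_SCKO 3 or Ctrl 1. With slide as a fixed block, on slide 1 alone and with the replicate number as a block none of these 3 collagen genes was called.

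Prnp, the prion protein gene, fell by 0.68 on the log2 scale (SE 0.16, limma adjusted p = 0.0294), although its other 2 probes gave -0.08 and -0.19. Its call was lost in 10 of 17 other settings, among them slide as a fixed block, slide 1 alone and leaving out any 1 of the Ctrl pools. Lama2, the laminin-211 chain, differed by -0.34 (SE 0.16, limma adjusted p = 0.175) and was not called. Among the remaining collagen IV chains, Col4a3 had a difference of -0.40, Col4a4 of 0.04 and Col4a6 of -0.69, and none was called. Without OGT_SCKO 1, Col4a6 was called, at -0.92. The second Col4a6 probe gave 0.99, the opposite sign. The partners reported for Gpr56 were not called either: Col3a1, a fibrillar collagen, differed by -0.36, the transglutaminase gene Tgm2 by -0.23 and the cytolinker gene Plec by 0.05.

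Gpr37 and Gpr37l1 are glial receptors of 1 family, and neither was called. Gpr37, at chr6:25618981-25619040 (mm9, minus strand), was dim, with -3.52, -3.05 and -3.27 in OGT_SCKO pools 1 to 3 and -3.15, -2.91 and -2.80 in Ctrl pools 1 to 3. The groups overlapped, and the log2 difference was -0.32 with an SE of 0.16. With normexp background correction it was -0.10. A second Gpr37 probe read in the background on all 6 arrays.

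Gpr37l1 had 3.64, 3.70 and 3.76 in OGT_SCKO pools 1 to 3, against 3.26, 3.34 and 3.46 in Ctrl pools 1 to 3. The lowest OGT_SCKO pool lay 0.19 above the highest Ctrl pool. Means were 3.70 ± 0.06 in OGT_SCKO and 3.35 ± 0.10 in Ctrl nerves (SD, n = 3 each), a log2 difference of 0.35 with an SE of 0.11, or 1.27-fold. It was not called in the fit over all genes, and was called under quantile normalisation, in the authors' deposited table and with slide as a random block. On slide 1 alone the difference was 0.36.

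Psap, the gene of their reported ligand prosaposin, differed by 0.22 (SE 0.14, limma adjusted p = 0.295) and was not called. Satellite glia and astrocytes also use Gpr37l1. Of the 4 markers of those cells, Kcnj10, a potassium channel gene, rose 2.28-fold (log2 difference 1.19, SE 0.15, limma adjusted p = 0.00317) and Slc1a3, a glutamate transporter gene, rose 1.73-fold (log2 difference 0.79, SE 0.18, limma adjusted p = 0.0247). On slide 1 alone neither was called, and the call of Slc1a3 was also lost with slide as a fixed block, with the replicate number as a block and without OGT_SCKO 3 or any 1 of the Ctrl pools. Fabp7 and Aqp4 were not called, and the share called over all genes was 23.3%. The summed level of the 4 was 2.84 to 3.27 in OGT_SCKO and 2.13 to 2.65 in Ctrl pools, with none of the 4 below background, and their part in the Gpr37l1 values was not tested.

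Gpr17 read in the background on all 6 arrays, with signals of 27.7, 89.8 and 99.3 in OGT_SCKO pools 1 to 3 and 42.7, 27.8 and 32.1 in Ctrl pools 1 to 3. The lowest signal well above background on these arrays was 107.1 to 112.3, so no fold is given. Among 4 markers of oligodendrocytes, the cells in which Gpr17 is best known, Olig2 was not tested and Mog was not called. Mobp, a myelin gene, fell 6.87-fold (log2 difference -2.78, SE 0.16, limma adjusted p = 0.000214). Opalin, another myelin gene, rose at least 1.64-fold (limma adjusted p = 0.000455), being above background in 3 of 3 OGT_SCKO pools and 0 of 3 Ctrl pools. It entered the test only through the OGT_SCKO pools.

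Both endothelin receptors were higher in OGT_SCKO nerves. Ednra, at chr8:80186985-80187044 (mm9, minus strand), had 0.37, 0.16 and 0.12 in OGT_SCKO pools 1 to 3, against -0.66, -0.32 and -0.77 in Ctrl pools 1 to 3. The groups lay 0.44 apart, and among the Ctrl pools the highest was Ctrl 2, the one that shares a slide with the OGT_SCKO pools. Means were 0.21 ± 0.13 in OGT_SCKO and -0.58 ± 0.23 in Ctrl nerves (SD, n = 3 each), a log2 difference of 0.80 with an SE of 0.15, or 1.74-fold. Within slide 1, against Ctrl 2 alone, the difference was 0.54 and was not among the calls.

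Ednrb, at chr14:104214484-104214543 (mm9, minus strand), had 0.25, 0.50 and 0.29 in OGT_SCKO pools 1 to 3 and -0.24, -0.04 and -0.15 in Ctrl pools 1 to 3. The groups lay 0.29 apart. The log2 difference was 0.49 with an SE of 0.12, or 1.40-fold. Within slide 1 it was 0.39 and was not among the calls, and with no filter on dim probes Ednrb was not called either. The second Ednrb probe, shown above, had -2.17, -1.21 and -1.45 in OGT_SCKO pools 1 to 3 and -1.82, -1.87 and -1.99 in Ctrl pools 1 to 3. There OGT_SCKO 1 was the lowest of all pools, and the difference was 0.28 with an SE of 0.24. The mean of both probes differed by 0.39 and was not among the calls. With the replicate number as a block neither Ednra nor Ednrb was among the calls. Without Ctrl 1 or without Ctrl 3 neither receptor was called, and Ednrb was also not called without OGT_SCKO 3 or without Ctrl 2.

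**Figure D2:**
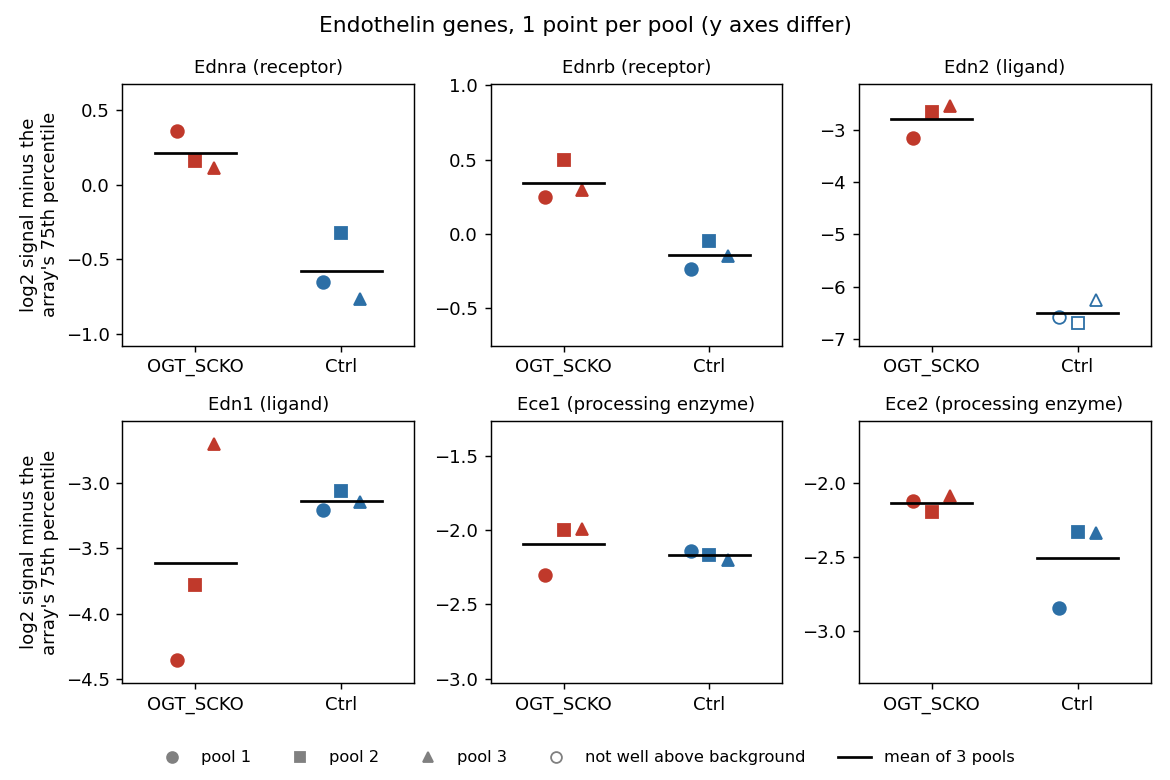
Log2 signal relative to the array's 75th percentile (y axis, its own scale in each panel) of the endothelin receptors, ligands and processing enzymes in 3 OGT_SCKO and 3 Ctrl pools. Each point is 1 pool, open points were not well above background and lines are means. Edn2 was above background in the 3 OGT_SCKO pools alone, and Edn1 spans -4.36 to -2.70 in OGT_SCKO pools, around the Ctrl values.

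Among the endothelin ligands, Edn2 rose. It had -3.16, -2.67 and -2.55 in OGT_SCKO pools 1 to 3 and was not well above background in any Ctrl pool, where the probe read -6.59, -6.69 and -6.26 in pools 1 to 3. Against the lowest measurable level of the Ctrl arrays it was at least 4.80-fold higher (limma adjusted p = 0.00019), and it was called in each of the 16 other settings in which it was fitted. Edn2 entered the test only through the OGT_SCKO pools, where it was high, so this p and these settings are no independent support. Edn1, the endothelin known from endothelium, had -4.36, -3.78 and -2.70 in OGT_SCKO pools 1 to 3, against -3.21, -3.06 and -3.14 in Ctrl pools 1 to 3. It differed by -0.47 (SE 0.39, limma adjusted p = 0.392) and was not called, with its OGT_SCKO pools on both sides of the Ctrl pools. In 1 of 17 other settings Edn1 was called. Edn3 was not tested. Of the enzymes that release endothelins from their precursors, Ece1 differed by 0.07 and Ece2 by 0.37, and neither was called.

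Endothelin receptors are also used by vessel wall cells and melanocytes. Of the 6 mural cell markers, Pdgfrb rose 1.61-fold (log2 difference 0.69, SE 0.11, limma adjusted p = 0.00657) and the other 5 were not called. For these marker counts the share called over all genes was 23.3%, and nothing is read from them. The call of Pdgfrb was lost with slide as a fixed block, on slide 1 alone and with the replicate number as a block. The summed level of the 6 was 15.9 to 21.2 in OGT_SCKO and 20.7 to 25.9 in Ctrl pools. None of the 6 endothelial markers was called, and their sum was 3.56 to 5.96 in OGT_SCKO and 6.87 to 8.15 in Ctrl pools. Of the 6 melanocyte markers, Dct and Mc1r were not tested, and the other 4 (Tyr, Tyrp1, Pmel and Mlana) were well above background on all arrays and not called, with a sum of 0.566 to 0.798 in OGT_SCKO and 0.978 to 1.08 in Ctrl pools. The sums of the endothelial and melanocyte markers did not overlap between the groups, and those of the mural markers did. Single genes did not overlap in 45.7% of all genes tested. The endothelial sum rests mostly on Kdr, which had a log2 difference of -0.89. The other endothelial markers differed by -0.38 (Pecam1) to 0.17 (Tie1). The part of these cells in the values of Ednra and Ednrb was not tested.

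Mchr1 had the largest difference of the 8 receptors. It had -6.63, -5.74 and -4.83 in OGT_SCKO pools 1 to 3, against -2.24, -1.96 and -1.34 in Ctrl pools 1 to 3. Its signal was 34.8, 115 and 170 in OGT_SCKO pools and 875, 705 and 1708 in Ctrl pools, and it was well above background in 1 of 3 OGT_SCKO pools and in 3 of 3 Ctrl pools. The groups lay 2.59 apart.

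Mchr1 means were -5.73 ± 0.90 in OGT_SCKO and -1.85 ± 0.46 in Ctrl nerves (SD, n = 3 each). The log2 difference was -3.89 with an SE of 0.46, or 14.8-fold lower, leaving 6.77% of the Ctrl level. With OGT_SCKO 1 and 2 in the background, the size depends on how dim spots are treated. It was 10.1-fold lower with dim spots raised to the lowest value well above background, a setting chosen after seeing the data, and 4.43-fold lower with normexp background correction. Within slide 1 the log2 difference was -3.77, and there it was not among the calls. Pmch, the precursor gene of its ligand, was not tested.

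Some markers of other tissues were also lower in OGT_SCKO nerves. The summed level of the 4 tested adipocyte markers was 0.0552 to 0.297 in OGT_SCKO and 0.562 to 2.48 in Ctrl pools. Of these, Adipoq fell by 4.24 on the log2 scale (SE 1.02), while Cidec and Retn fell too, with log2 differences of -2.61 (SE 0.54) and -3.78 (SE 0.96), and Plin1 was not called. Only 1 of 3 OGT_SCKO pools was well above background for Adipoq and for Cidec and 2 of 3 for Retn, so these sizes rest partly on values in the background. The calls of Adipoq and Cidec were lost with normexp, with slide as a fixed block, without Ctrl 2 and without Ctrl 3, and that of Adipoq also on slide 1 alone and with the replicate number as a block. The sum of the 4 tested skeletal muscle markers was 0.295 to 0.466 in OGT_SCKO and 1.41 to 1.71 in Ctrl pools, and all 4 fell, Actn3 with a log2 difference of -3.84 (SE 0.21), while the call of Acta1 was lost with normexp, with slide as a fixed block and on slide 1 alone. Among 4 neuron markers, Syt1 fell at least 4.27-fold (limma adjusted p = 0.00783), with 0 of 3 OGT_SCKO pools above background, and the other 3 were not called. The sum of the 4 neuron markers overlapped between the groups, at 3.74 to 8.02 in OGT_SCKO and 5.61 to 9.63 in Ctrl pools. The call of Syt1 was lost with normexp, with slide as a fixed block and on slide 1 alone. Across all genes 23.3% were called, and the part of these cells in the Mchr1 values was not tested.

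**Figure D3:**
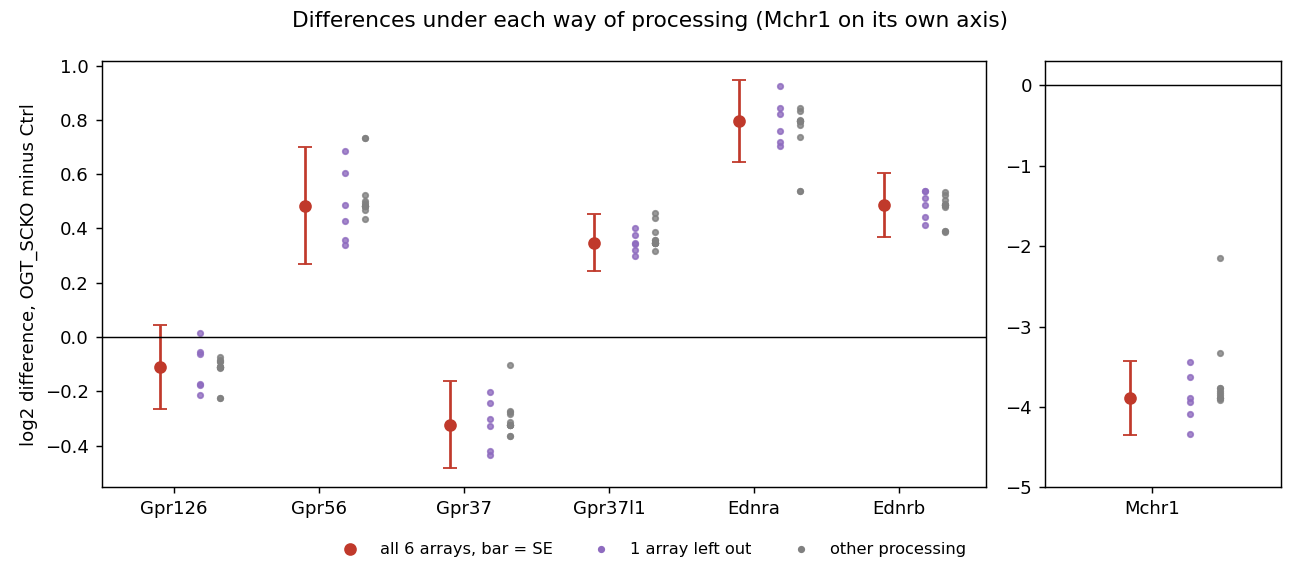
Log2 difference, OGT_SCKO minus Ctrl (y axis), of the 7 tested receptors (x axis, Mchr1 on an axis of its own). Large points with bars are the values over all 6 arrays with their SE, violet points leave out 1 array and grey points use other processing. Ednra lies between 0.54 and 0.92 and Mchr1 between -4.34 and -2.15, while Gpr126 reaches 0.02.

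Downstream of the receptors, 51 of 52 genes of heterotrimeric G proteins and cyclic AMP signalling were tested: 9 rose, 1 fell and 41 were not called, and the list's median log2 difference was 0.03. For comparison, 23.3% of all genes were called, 11.2% as higher and 12.1% as lower, and nothing is read from the count. The largest rise in the list was in Adcy8, a calcium-stimulated adenylyl cyclase that makes cyclic AMP. It had -0.73, -0.26 and -0.32 in OGT_SCKO pools 1 to 3, against -2.18, -2.48 and -2.32 in Ctrl pools 1 to 3, and was 3.70-fold higher (log2 difference 1.89, SE 0.16, limma adjusted p = 0.000698). It was called in all 17 other settings.

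Among the other adenylyl cyclase genes, Adcy7 rose 2.09-fold (log2 difference 1.07, SE 0.17, limma adjusted p = 0.0072). Adcy2 rose 1.66-fold (log2 difference 0.73, SE 0.11, limma adjusted p = 0.00559). The rest of these cyclase genes were not called, with differences from -0.31 (Adcy6) to 0.05 (Adcy5), and all but Adcy5 were lower. Pde8a, which encodes a phosphodiesterase that breaks cyclic AMP down, rose 1.95-fold (log2 difference 0.96, SE 0.13, limma adjusted p = 0.00455). Gna12, the gene of a G protein subunit to which Gpr56 is reported to couple, fell 1.43-fold (log2 difference -0.52, SE 0.10, limma adjusted p = 0.0119). Gna13 in the same list went the other way and was not called, at 0.26, with 0.41, 0.63 and 0.44 on its other probes. Gnas was not called either, at -0.18, although its other probes gave -0.88 and -0.82. The calls of Adcy2, Adcy7 and Gna12 were lost with slide as a fixed block and on slide 1 alone, that of Pde8a on slide 1 alone, and that of Gna12 also with the replicate number as a block and without OGT_SCKO 3 or Ctrl 3. The other members that rose were Gnao1, Gnaz, Pde3b, Creb1 and Grk3. Gnao1 (limma adjusted p = 0.0495) and Creb1 (limma adjusted p = 0.0454) lay just under the threshold. A second probe gave 0.181 against 0.583 for Gnaz and 0.134 against 0.365 for Creb1.

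**Figure D4:**
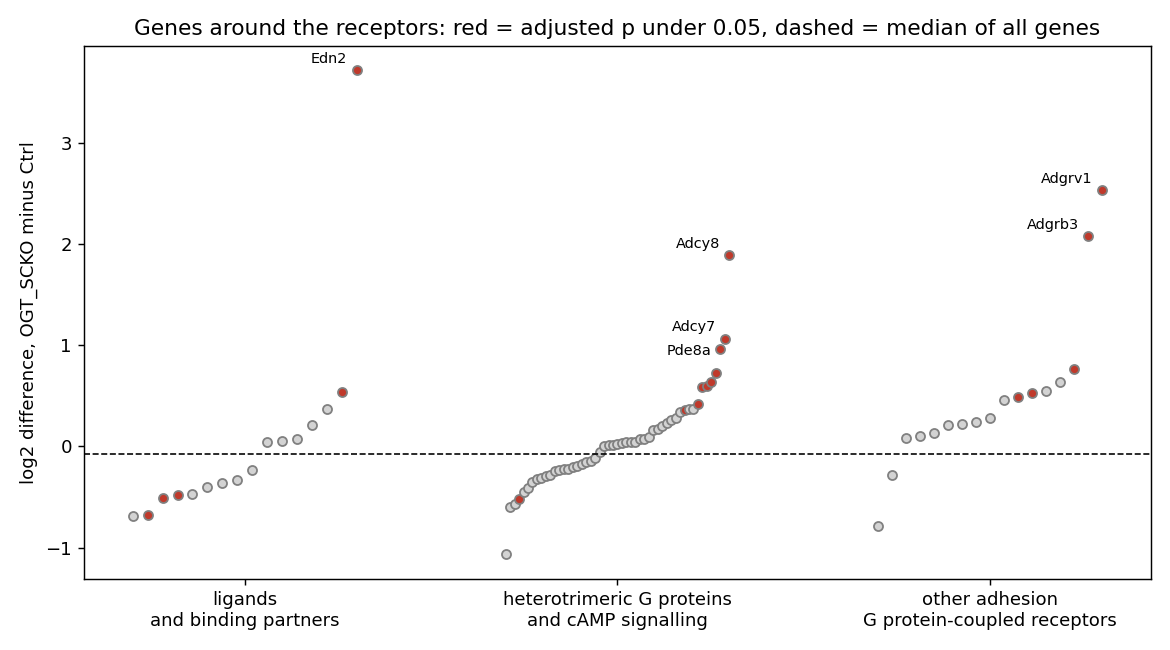
Log2 difference, OGT_SCKO minus Ctrl (y axis), of each tested gene of 3 lists (x axis), ordered by size within a list. Red points passed an adjusted p under 0.05 and the dashed line is the median of all genes, -0.08. Edn2 and Adgrv1 are drawn at their measured difference, although neither was well above background in any Ctrl pool.

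Beyond Gpr126 and Gpr56, 17 of 27 other adhesion receptor genes were tested, of which 5 rose, 0 fell and 12 were not called. Their median log2 difference was 0.28, with Adgrv1 at its measured value or at its bound. Across all genes 23.3% were called, 11.2% as higher and 12.1% as lower. Adgrb3, a receptor for complement-like synaptic proteins, had -3.80, -2.91 and -3.15 in OGT_SCKO pools 1 to 3, against -5.53, -5.80 and -4.78 in Ctrl pools 1 to 3, where 1 of 3 was above background. It rose, with a measured log2 difference of 2.08 (SE 0.32, limma adjusted p = 0.00655) that rests partly on Ctrl values in the background, and was not called on slide 1 alone.

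Adgrv1 rose at least 1.21-fold (limma adjusted p = 0.00287), with 0 of 3 Ctrl pools above background, and its call was lost with normexp and on slide 1 alone. Adgre5, the CD97 gene, rose 1.40-fold (log2 difference 0.49, SE 0.12, limma adjusted p = 0.031), and Adgrl1, a latrophilin gene, 1.45-fold (log2 difference 0.53, SE 0.13, limma adjusted p = 0.0329). The call of Adgre5 was lost in 8 and that of Adgrl1 in 9 of 17 other settings, for both with slide as a fixed block, on slide 1 alone and without OGT_SCKO 1, OGT_SCKO 3, Ctrl 1 or Ctrl 3. Adgrl3 was the remaining member that rose. Adgrb3 and Adgrv1 entered the test through the OGT_SCKO pools, where they were above background.

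The ligand and partner list as a whole had 16 of 18 genes tested, of which 2 rose (Edn2 and Col4a5), 3 fell (Prnp, Col4a1 and Col4a2) and 11 were not called, with a median log2 difference of -0.28. The share called over all genes was 23.3%. Markers of immature or repair Schwann cells were measured as well: of 8, Ngfr, Gfap, Shh and Gdnf rose, Ncam1 fell and 3 were not called. The main Ncam1 probe differed by -0.59, whereas its other probes gave -0.06 and 0.03. Shh, which encodes a secreted ligand, rose at least 8.69-fold (limma adjusted p = 0.00028), and Gdnf, the gene of a trophic factor, at least 2.61-fold (limma adjusted p = 0.000242). Neither Shh nor Gdnf was well above background in any Ctrl pool, and both entered the test only through the OGT_SCKO pools. The summed level of the 8 markers was 19.7 to 26.3 in OGT_SCKO and 14.9 to 17.3 in Ctrl pools. Most of this sum is Ngfr, with a mean log2 value of 4.18 in OGT_SCKO and 3.41 in Ctrl nerves, so it does not describe the whole list.

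The called genes of the remaining marker lists are given beside the 23.3% called over all genes, and nothing is read from their number. Dpt fell among 5 fibroblast markers and Lypd2 among 4 perineurial markers. None of 5 macrophage markers was called. Klrd1, a natural killer cell gene, rose among 3 tested T and NK cell markers, and Kit rose among 5 mast cell and neutrophil markers. Of the others in that last list, none called, Cpa3 differed by 1.22, Mcpt4 by 1.19, S100a8 by 0.03 and Ly6g by 0.03. Klrd1 was not well above background in any Ctrl pool and entered the test only through the OGT_SCKO pools. The calls of Dpt, Lypd2 and Kit were lost on slide 1 alone, that of Lypd2 also with the replicate number as a block and without OGT_SCKO 3, and that of Kit with slide as a fixed block and without OGT_SCKO 2, OGT_SCKO 3 or any 1 of the Ctrl pools.

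The genes whose values over the 6 arrays were most like those of each receptor are given by Pearson's r, with no p, and many genes reach a high r with so few arrays. For Ednra they were 1700084M14Rik (r = 0.999) and Gnaz (r = 0.996), a G protein gene listed above, and 268 of 15303 genes had r over 0.95. For Ednrb they were Fut4 (r = 0.999) and Ccna2 (r = 0.995), with 251 genes over 0.95. Mchr1 was most like Marchf5 (r = 0.999) and Bloc1s3 (r = 0.998), with 477 such genes, Gpr37l1 most like Pxylp1 (r = 0.996) and Lars2 (r = 0.996), with 375, and Gpr56 most like Zfp647 (r = 0.995) and Nsmce2 (r = 0.995), with 211. The 2 lowest counts were those of Gpr126 and Gpr37: Gpr126 was most like Fads6 (r = 0.993) and Irak1 (r = 0.99), with 62, and Gpr37 most like Nid2 (r = 0.994) and Lrrn1 (r = 0.986), with 17.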

How the data were processed

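Total RNA of 3 OGT_SCKO and 3 Ctrl pools was labelled with Cy5 and hybridised to 6 single-channel Agilent arrays, per the labels. The deposited spot intensity values came from Agilent Feature Extraction 11.5.1.1, per the submitters' processing notes, and other flags deposited with them mark spots above background and outliers. How the authors' deposited table of log2 values was made is not stated in the labels, and it served as an alternative. Values here are log2 processed signals minus each array's 75th percentile, without control and outlier spots. Probes were kept if well above background on every array of 1 group or both (24287 of 39429), and a gene was its kept probe with the highest mean. Among the called genes named here, Edn2, Adgrb3, Adgrv1, Shh, Gdnf, Opalin and Klrd1 passed only through the OGT_SCKO pools. Mchr1, Syt1, Adipoq, Cidec and Retn passed only through the Ctrl pools. The calls of such genes are no independent support for a difference that the filter already favours. Accessions were matched to RefSeq's gene table of GRCm38.p6 (27655 probes). The 75th percentile signal was 2749 to 6136, and 58.9% to 65.2% of probes were above background. The number of arrays limits the precision. Groups were compared with lmFit and eBayes (limma 3.58.1, R 4.3.3) with no covariate and Benjamini-Hochberg adjustment over all genes, tested on simulated data. For a probe in the background on every array of 1 group, "at least" folds set the other group's mean against the higher of its own value and the lowest value well above background.

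The receptors and lists were chosen with earlier results of these data known, so members carry no p. The rule named each receptor, each tested ligand, up to 4 higher and 4 lower called genes of the other pathway lists and up to 2 called genes per marker list by smallest p, and the 2 genes most like each receptor. Other genes named (Gnao1, Gnaz, Gna13, Gnas, Adcy5, Adcy6, Pde3b, Creb1, Grk3, Adgrl3, Ngfr, Gfap, Ncam1, Retn and uncalled markers) were chosen after their values were seen. They come from the fit over all genes alone. Alternatives were quantile and median scaling, normexp, other filters, the mean of probes, the deposited values, slide or replicate number as a block, slide 1 alone, and each pool left out.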

Additional observations from a re-analysis of the deposited data

How the results depend on the processing

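The count of called genes, 4438, was 2722 with normexp, 2629 with no filter on dim probes, 1226 with slide as a fixed block, 406 on slide 1 alone, 1475 with a replicate block, 1738 at an adjusted p under 0.01, and 1974 (without OGT_SCKO 3) to 5630 (without OGT_SCKO 1) when 1 pool was left out. It was 2447 without Ctrl 1, 2558 without Ctrl 2 and 2103 without Ctrl 3. Higher genes made up 47.9% of the calls, against 69.7% on slide 1 alone. Replicate numbers did not pair the pools (correlation of deviations -0.27, -0.53 and 0.06). Under the replicate block Ednra and Ednrb kept their differences of 0.80 and 0.49 and were not called. Gpr126 was 0.016 without OGT_SCKO 2. Gpr37 was -0.10 with normexp. Gpr37l1 was 0.46 under quantile normalisation and 0.44 in the deposited table. Ednra was 0.54 with slide as a fixed block and on slide 1 alone, and Mchr1 was -2.15 with normexp. Leaving out 1 pool gave -0.214 to 0.016 for Gpr126, 0.34 to 0.69 for Gpr56, -0.43 to -0.20 for Gpr37, 0.30 to 0.40 for Gpr37l1, 0.70 to 0.92 for Ednra, 0.41 to 0.54 for Ednrb and -4.34 to -3.44 for Mchr1.

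Calls in the ligand list, 5, were 2 under quantile normalisation, in the deposited table and with no filter, 1 with slide as a fixed block, on slide 1 alone or with the replicate block, 5 with slide as a random block, and 2 to 5 with 1 pool left out. In the G protein list, 10, they were 4 with no filter, 2 with slide as a fixed and 13 with slide as a random block, 1 on slide 1 alone, 4 with the replicate block and 4 to 11 with 1 pool left out. In the adhesion receptor list, 5, they were 3 with normexp and with the filter on all 6 arrays, 2 with no filter, with slide as a fixed block and with the replicate block, 7 with slide as a random block, 0 on slide 1 alone and 2 to 5 with 1 pool left out. Col4a4 reversed to -0.011 with normexp, -0.085 for the mean of its probes and -0.187 with slide as a fixed block (0.083 with a random one) and on slide 1 alone, and ran from -0.096 to 0.153 with 1 pool left out. Col4a6 reversed to 0.15 for the mean of its probes. Plec reversed to -0.151 with slide as a fixed block (0.09 with a random one) and on slide 1 alone, and ran from -0.068 to 0.172 with 1 pool left out. Mchr1, Edn2, Adgrb3, Adgrv1, Shh, Gdnf, Opalin, Klrd1, Syt1, Adipoq and Cidec could not be fitted under the filter on all 6 arrays. Where a slide holds 1 Ctrl pool, that pool is assumed to vary like the others. The causes were not tested. Signal over background limits Gpr17, Mchr1, Edn2, Adgrb3, Adgrv1, Shh, Gdnf, Opalin, Klrd1, Syt1, Adipoq, Cidec and Retn.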
